A study of Mus musculus with 38 samples.

Results

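The genes described here are 10 core pluripotency transcription factor genes of the mouse, *Pou5f1*, *Nanog*, *Sox2*, *Klf4*, *Klf2*, *Esrrb*, *Tfcp2l1*, *Tbx3*, *Prdm14* and *Sall4*, out of 21951 protein-coding genes of the GENCODE M21 basic annotation. Their binding sites were the intervals of 3 lists, for SOX2, HSF1 and HSF2, that lie in the body of one of the genes or within 20 kb of one of its transcript starts. The rule took 31 of 15081 SOX2 sites, 9 of 1726 HSF1 sites and 6 of 2135 HSF2 sites. The rule uses positions and no signal value, though genes and rule were chosen with earlier results of these data known.

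In embryonic stem cells OCT4 (the product of *Pou5f1*), SOX2 and NANOG occupy each other's enhancers and their own, and so hold the undifferentiated state in place. KLF2, KLF4, ESRRB, TFCP2L1, TBX3, PRDM14 and SALL4 add to this circuit and keep mouse cells in the naive state, in which LIF signalling and inhibitors of differentiation support self-renewal. HSF1 and HSF2 belong to another family, the heat shock factors, which bind inverted repeats of GAA and are best known at chaperone genes. At mitosis chromosomes condense and most transcription stops, and a factor that stays on its sites through this phase is said to bookmark them.

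The samples were JM8 mouse embryonic stem cells profiled by CUT&Tag, in which an antibody tethers a transposase that cuts and tags the DNA beside the bound protein in native, unfixed chromatin. Asynchronous cells (A) were compared with mitotic cells (M), which had been held for 6 h in nocodazole at 50 ng/ml, a drug that stops tubulin from polymerizing, and shaken off the dish. SOX2, HSF1 and HSF2 were measured with antibodies against the endogenous proteins in wild-type JM8 cells. A second set of cells lacked endogenous *Hsf2* and carried a tagged protein driven by the EF1α promoter, either full-length HSF2 (Halo-HSF2, read with anti-HSF2 in the HSF2-OE libraries and with anti-HA in the full-length HA tag libraries) or its DNA-binding domain alone (Halo-H2DBD, read with anti-HA). Of 19 conditions with 2 libraries each, 12 had values used here. The other 7 conditions, among them IgG, the HA control and the *Hsf2* knockout cells, were not analysed here.

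Each value is the coverage scaled to *Drosophila* spike-in reads, averaged by the authors over the 2 libraries of a condition and over the bases of a site, and it is called the signal below. A site therefore has 1 value in A and 1 in M, with no spread between replicates, no read count and no test. The tables used here give no depth, and the read totals that the study lists for libraries were not used here. The change is given as the log2 ratio of M over A (log2 M/A), and a size of 1, which is a 2-fold difference, served as the mark for a large one. Every statement on the 10 genes is a description, and the summaries over their sites stand beside those of all sites of the list.

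All 10 genes had a SOX2 site, from 1 at *Klf4* to 6 at *Esrrb*. HSF1 sites lay at 5 of the genes and HSF2 sites at 4. The share of all protein-coding genes with a site in each list was not computed, so these counts have no background beside them. *Pou5f1*, *Klf2* and *Tbx3* held sites of all 3 factors, *Nanog* and *Esrrb* of SOX2 and HSF1, and *Klf4* of SOX2 and HSF2. *Sox2*, *Tfcp2l1*, *Prdm14* and *Sall4* had SOX2 sites only. Of the 31 SOX2 sites, 2 covered a transcript start, 12 lay upstream, 11 in introns and 6 downstream, and 3 of 9 HSF1 sites and 4 of 6 HSF2 sites covered a start. Over the whole lists 1.71% of SOX2 sites, 46.4% of HSF1 sites and 71.5% of HSF2 sites covered the start of a protein-coding gene.

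**Figure D1:**
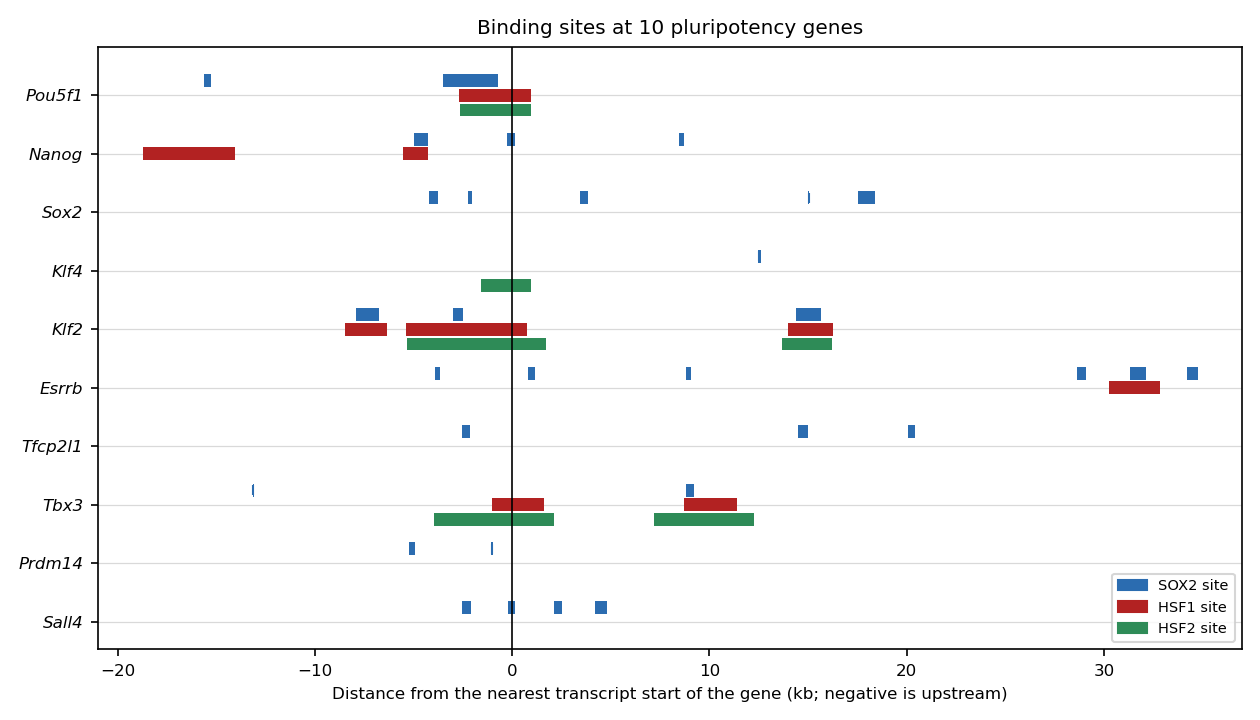
Sites of SOX2 (blue), HSF1 (red) and HSF2 (green) at the 10 genes, drawn to scale by their distance in kb from the nearest transcript start of the gene, with the direction of transcription to the right. Bars are the intervals of the lists. HSF1 and HSF2 bars cover the starts of *Pou5f1*, *Klf2* and *Tbx3*, an HSF2 bar that of *Klf4*, and at the starts of *Nanog* and *Sall4* the bar is a SOX2 site.

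Sequences were read from the GRCm38 (mm10) reference of RefSeq and searched on both strands for 4 motifs. They were the SOX core (ACAAAG or ACAATG), the octamer bound by OCT4 (ATGCAAAT), the composite element on which SOX2 and OCT4 sit side by side (CATTGT, 1 free base, ATGCAAA; its first part is an ACAATG core on the other strand) and the heat shock element (GAA, TTC and GAA, or TTC, GAA and TTC, each separated by 2 free bases). The elements that match are shown first, with capitals marking the match. The *Nanog* window is on the minus strand at chr6:122707394-122707447, its element ending 62 bp before the transcript start. The *Sox2* window is on the plus strand at chr3:34654029-34654082, downstream of the single-exon gene, and its element differs from the composite at 1 base. The *Esrrb* window is on the plus strand at chr12:86500806-86500848, in an intron.
Nanog composite element: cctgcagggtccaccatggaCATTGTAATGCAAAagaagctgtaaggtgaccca
Sox2 composite element: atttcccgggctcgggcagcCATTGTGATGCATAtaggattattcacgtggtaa
Esrrb heat shock element: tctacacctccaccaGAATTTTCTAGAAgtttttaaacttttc

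The exact composite element was found in 1 of the 31 SOX2 sites, that over the start of *Nanog*, and in 0.172% of all SOX2 sites. With 1 mismatch allowed it was found in 2, at *Nanog* and *Sox2*, and in 2.63% of all. In the 200 bp upstream of the first start of 21938 protein-coding genes, exactly 1 window held the exact element, and it was that of *Nanog*. The exact form admits the ACAATG core only, so that an element with the ACAAAG core counted as a mismatch. These upstream windows were searched for the exact form alone. The octamer was present in 6 of the 31 sites (8.56% of all SOX2 sites) and the SOX core in 21 (57.8% of all). The sites of the 10 genes were wider than the list as a whole, with a median of 399 bp against 224 bp, so that a motif had more room in them. In the central 200 bp the SOX core was found in 16 sites (50.4% of all) and the octamer in 4 (7.1% of all). No such match says that a factor is bound through it.

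The central 200 bp of the strongest SOX2 site are printed next for 3 of the genes. *Klf2* was taken because its signal is the highest of the 31, and the others as examples with an octamer. The *Klf2* stretch is chr8:72316175-72316374 of a site 524 bp wide, and the whole site holds 4 SOX cores. The *Tfcp2l1* stretch is chr1:118625531-118625730 of a site of 399 bp. The *Sox2* stretch is chr3:34668278-34668477 of a site of 899 bp. All are on the plus strand, with the octamer or SOX core in capitals.
Klf2 upstream site: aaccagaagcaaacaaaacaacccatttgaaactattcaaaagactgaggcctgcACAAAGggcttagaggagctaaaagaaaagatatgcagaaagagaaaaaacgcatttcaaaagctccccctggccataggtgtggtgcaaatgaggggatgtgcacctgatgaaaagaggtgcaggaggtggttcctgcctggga
Tfcp2l1 upstream site: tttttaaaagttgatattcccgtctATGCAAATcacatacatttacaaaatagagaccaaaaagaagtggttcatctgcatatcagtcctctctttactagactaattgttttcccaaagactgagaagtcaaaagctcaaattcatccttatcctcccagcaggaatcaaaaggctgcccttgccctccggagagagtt
Sox2 downstream site: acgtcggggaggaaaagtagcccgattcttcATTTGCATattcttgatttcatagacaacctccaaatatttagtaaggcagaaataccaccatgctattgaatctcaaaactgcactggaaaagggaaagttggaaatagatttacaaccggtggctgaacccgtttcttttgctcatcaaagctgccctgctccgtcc

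At the middle SOX2 site of the 10 genes the mitotic signal was close to the asynchronous one. The median log2 M/A was −0.05 over the 30 sites with signal in both phases, against 0.34 over all SOX2 sites with such values. Signal was higher in M at 14 of the 30 sites, where 63.4% of all sites were higher in M. At 5 of the 30 sites it was at least 2-fold higher in M (26.8% of all sites) and at 3 at least 2-fold lower (10.0% of all sites). The sites of the 10 genes were among the stronger ones, with a median of 19.8 in A against 8.74 over all sites. In the strongest quartile of the list by the mean of A and M, the 14 sites of these genes had a median log2 M/A of 0.02 and all sites of that quartile 0.49. In the next quartile the values were −0.27 for 9 sites and 0.26 for all, and in the one below that 0.26 for 7 sites and 0.22 for all. The sign of the median depended on how sites were taken and summarized, and it was 0.07 for the 16 sites within 5 kb of a start and −0.38 after the median of all sites was subtracted.

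**Figure D2:**
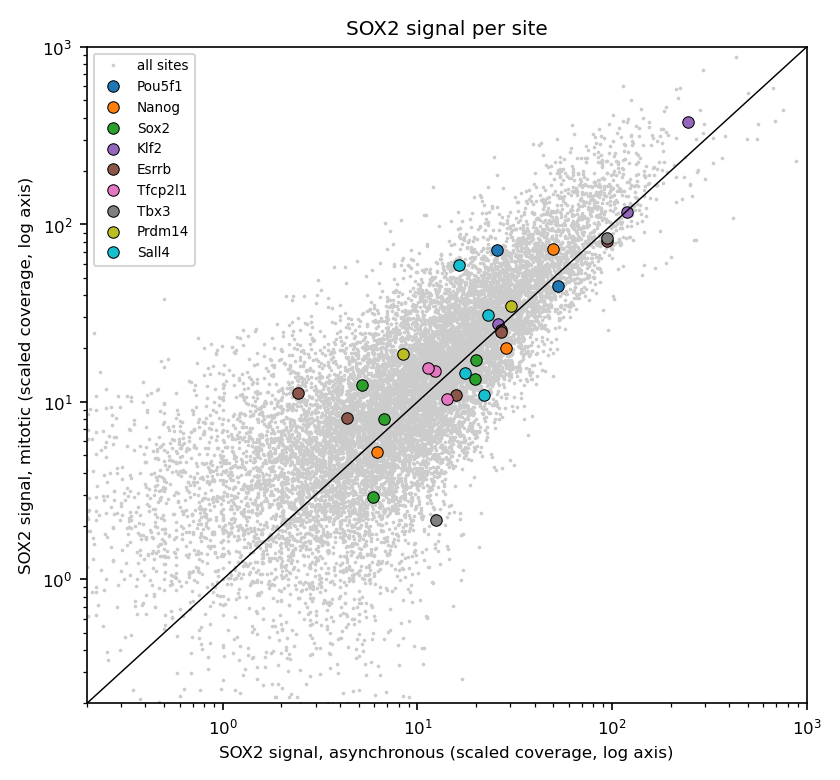
SOX2 signal (spike-in-scaled coverage) in asynchronous cells on the x axis and in mitotic cells on the y axis, both on log axes from 0.2 to 1000. Points are the 14264 SOX2 sites with signal in both phases (grey) and the 30 such sites of the 10 genes (coloured by gene). The line marks equal signal. Of the grey sites 195 lie outside the axes, and sites at 0 in either phase, the *Klf4* site among them, are not drawn. Among the coloured sites, a *Klf2* site at 247 and 376 is farthest along the diagonal, and a *Tbx3* site at 12.5 and 2.15 lies farthest below it.

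*Pou5f1* encodes OCT4, the POU factor that pairs with SOX2 on DNA. Its SOX2 site at chr17:35502524-35505322, whose near edge is 696 bp upstream of the start, reached 52.5 in A and 44.7 in M (log2 ratio −0.23). A second site, 15246 bp upstream at chr17:35490399-35490772, had 25.6 in A and 71.7 in M (log2 ratio 1.49). By this mean per base the order of the pair was exchanged. The distal site moved from rank 2654 in A to rank 976 in M while the proximal one moved from rank 886 to rank 1968. The means are over unequal widths, 374 bp for the distal and 2799 bp for the proximal interval, so they do not compare the total signal of the 2 sites. At *Sox2* itself, which encodes the HMG-box partner of OCT4, the 5 sites ranged from 5.17 to 20.1 in A. The site with the highest signal in A, at 17523 bp downstream, had 20.1 in A and 17.2 in M. The site with the composite-like element had 19.8 in A and 13.5 in M (log2 ratio −0.56). The greatest difference in the upward direction was 1.27, at an interval only 24 bp wide with 5.17 in A and 12.5 in M, and the greatest in the downward direction was −1.02, at 3779 bp upstream with 5.93 in A and 2.93 in M. The remaining *Sox2* site, 2029 bp upstream, had 6.71 in A and 8.02 in M.

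*Nanog* encodes a homeodomain factor of the same core. Its 3 SOX2 sites did not share a direction. At 4258 bp upstream, over chr6:122702533-122703231, it reached 49.4 in A and 72.4 in M (log2 ratio 0.55). Over the start, where the composite element printed above lies, it was 28.6 in A and 20.1 in M (log2 ratio −0.51). At 8440 bp downstream it was 6.19 in A and 5.24 in M.

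Among the Krüppel-like factors, *Klf2* carried the strongest SOX2 signal of all 10 genes. Its site 2497 bp upstream, whose central 200 bp are printed above, had 247 in A and 376 in M, ranks 31 and 23 of 15081. The site 14405 bp downstream had 120 in A and 117 in M, and that 6772 bp upstream had 26.0 in A and 27.3 in M. The log2 M/A of these sites lay between −0.03 and 0.61, so none of the 3 differed 2-fold. *Klf4*, which encodes a related zinc-finger protein, had a single SOX2 site, 12441 bp downstream of its transcript start, listed at 0 in A and at 2.74 in M. It gives no ratio and was the only one of the 31 sites listed at 0.

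*Esrrb*, encoding an orphan nuclear receptor, had 6 SOX2 sites, all in introns. The strongest, at chr12:86501449-86502247, had 93.8 in A and 80.3 in M (log2 ratio −0.22), and ranked 261 in A. The weakest in A had 2.45 in A and 11.2 in M, and its log2 M/A of 2.19 was the highest of the 30 values. The lowest for the gene was −0.53, at a site with 15.8 in A and 10.9 in M. The other 3 ran from −0.12 to 0.90. *Tfcp2l1*, encoding a grainyhead-like factor that acts downstream of LIF, had 3 SOX2 sites. The upstream one with the octamer printed above had 14.3 in A and 10.3 in M, and the intronic ones had 12.4 and 11.3 in A and 15.0 and 15.5 in M, in that order along the gene. All 3 stayed within 2-fold.

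*Tbx3* encodes a T-box factor. Its intronic SOX2 site at chr5:119679835-119680258 had 94.5 in A and 84.0 in M, close to the strongest *Esrrb* site. The other, 13086 bp upstream and 74 bp wide, had 12.5 in A and 2.15 in M, and its log2 M/A of −2.53 was the lowest of the 30. Repeat sequence covers 52.7% of that interval, the highest share among the 31. *Prdm14* encodes a PR-domain protein that represses differentiation genes. Signal was higher in M at both its sites, at 8.41 and 18.5 for the site 950 bp upstream, which is 99 bp wide, and at 30.3 and 34.9 for that 4925 bp upstream. *Sall4* encodes a spalt-like zinc-finger protein, and its sites spanned a wide range. The site over its start had 23.1 in A and 30.9 in M, that 2071 bp upstream, at chr2:168769272-168769745, 16.3 and 58.9 with a log2 M/A of 1.85, and those in introns 22.1 and 10.9 with −1.02, and 17.5 and 14.5 with −0.27.

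The 8 sites with a difference of 2-fold or more had 2.45 to 25.6 in A and 2.15 to 71.7 in M, and the upstream *Pou5f1* site among them exceeded 93.53% of the list in M. The 4 sites with the highest signal in A (2 at *Klf2* and 1 each at *Tbx3* and *Esrrb*) had log2 M/A of −0.22 to 0.61.

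**Figure D3:**
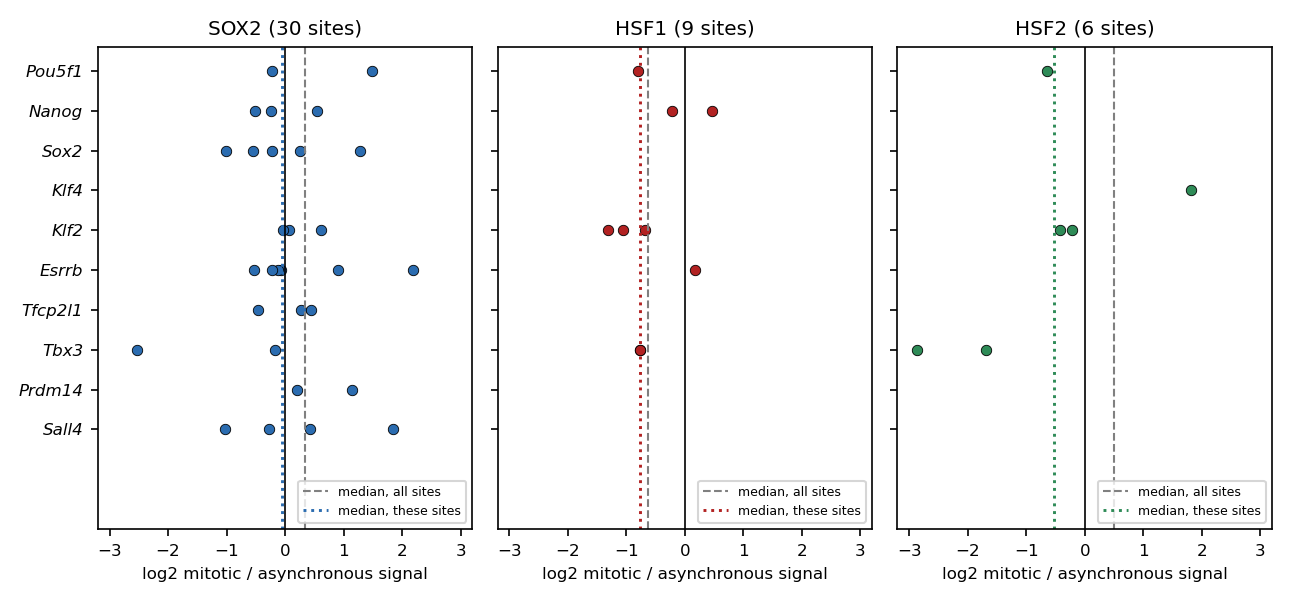
The log2 ratio of mitotic to asynchronous signal at each site (points) of the 10 genes, for SOX2 (30 sites), HSF1 (9) and HSF2 (6). Dashed grey lines mark the median of all sites of the list (0.34, −0.62 and 0.49) and dotted lines that of the sites shown (−0.05, −0.76 and −0.53); for HSF2 these medians lie on opposite sides of 0.

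HSF1 signal was lower in M at 7 of the 9 sites of these genes and higher at 2, both of them at genes with no HSF2 site. Over all HSF1 sites 8.11% were higher in M. The median log2 M/A was −0.76 for the 9 sites and −0.62 for all. A 2-fold lower signal was seen at 2 of the 9 (17.7% of all) and a 2-fold higher one at none (0.521% of all). The sites were of middling strength, with at most 10.1 in A where the strongest of the list reached 277.

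The highest HSF1 signal in A was over the start of *Pou5f1*, with 10.1 in A and 5.79 in M, rank 392 of 1726 in A. *Klf2* had 3 sites, which measured 9.50 in A and 4.58 in M over the start, 7.70 and 4.77 downstream, and 3.31 and 1.33 at 6332 bp upstream. These are log2 M/A of −1.05, −0.69 and −1.31, and the 2 sites past 2-fold are both at this gene. At *Tbx3* the site over the start had 5.00 in A and 2.93 in M and that inside the gene 4.23 and 2.50, with log2 ratios of −0.77 and −0.76.

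The exceptions were *Nanog* and *Esrrb*. At 4238 bp upstream of *Nanog*, over chr6:122701964-122703251, HSF1 reached 5.72 in A and 7.90 in M (log2 ratio 0.47), and the site moved from rank 932 to rank 280. The SOX2 site inside that interval also had a positive value, 0.55. A broad HSF1 interval farther upstream of *Nanog* had 1.09 in A and 0.94 in M. The intronic *Esrrb* site, the only one of the 9 with a heat shock element (16.0% of all HSF1 sites), had 1.88 in A and 2.13 in M (log2 ratio 0.18) at a low level. The list of HSF1 sites carries a second set of the authors' means, and in those the direction of both exceptions turned. There all 9 sites were lower in M, with log2 M/A from −3.92 to −0.29 and a median of −3.17 against −2.41 over the list, and the *Nanog* site had 9.25 in A and 0.86 in M (−3.43) and the *Esrrb* site −2.31. The headers do not say how the 2 sets differ.

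HSF2 signal was lower in M at 5 of the 6 sites of these genes, while 72.3% of all HSF2 sites were higher in M. The median log2 M/A was −0.53 for the 6 sites and 0.49 for all. It was at least 2-fold lower at 2 sites, both at *Tbx3* (7.26% of all sites), and at least 2-fold higher at 1, at *Klf4* (30.1% of all sites). In the second set of means for HSF2, the same medians were −0.50 and 0.51. By quartile of the mean of A and M, from weakest to strongest, the list medians were 0.71, 0.62, 0.49 and 0.11. The share of the list higher in M was 82.4% in the weakest quartile and 55.1% in the strongest. The quartiles held 1, 1, 3 and 1 of the 6 sites, with medians of 1.82, −1.68, −0.41 and −2.87. None of the 6 intervals holds a heat shock element by the search above, which 14.1% of all HSF2 sites do.

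At the start of *Tbx3*, over chr5:119666709-119672801, HSF2 reached 16.5 in A and 2.25 in M (log2 ratio −2.87), and the site moved from rank 155 to rank 2012 of 2135. The interval inside the gene had 5.92 in A and 1.84 in M (log2 ratio −1.68). HSF1 over the same places had −0.77 and −0.76, and the SOX2 site within the inner interval −0.17. *Klf4* was the opposite case. HSF2 over its start, at chr4:55531516-55534020, was weak in A, at 1.15 and rank 2023, and had 4.07 in M (log2 ratio 1.82), with a rank of 1573 in M. The intervals at *Pou5f1* and *Klf2* stayed within 2-fold, at 9.05 in A and 5.77 in M over the start of *Pou5f1*, 6.55 and 4.92 over that of *Klf2*, and 5.92 and 5.09 downstream of *Klf2*. The 6 sites ranged from 1.15 to 16.5 in A and from 1.84 to 5.77 in M, within lists that ran from 0.164 to 142 and from 0.331 to 183.

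The promoters with the greatest difference in each direction, those of *Tbx3* and *Klf4*, are given as the 200 bp before the first transcript start. The *Tbx3* stretch is chr5:119670469-119670668 on the plus strand and the *Klf4* stretch chr4:55532467-55532666 on the minus strand. Neither stretch holds any of the 4 motifs, and of such upstream windows of all protein-coding genes 0.292% hold a heat shock element and 18.1% a SOX core. The whole intervals hold 4 SOX cores and 1 octamer at *Tbx3* and 2 SOX cores at *Klf4*. Of all HSF2 sites searched, 85.5% hold a SOX core and 9.62% an octamer, and each of the 6 sites of these genes holds a SOX core. The presence of a SOX core therefore does not set the *Tbx3* and *Klf4* intervals apart.
Tbx3 promoter: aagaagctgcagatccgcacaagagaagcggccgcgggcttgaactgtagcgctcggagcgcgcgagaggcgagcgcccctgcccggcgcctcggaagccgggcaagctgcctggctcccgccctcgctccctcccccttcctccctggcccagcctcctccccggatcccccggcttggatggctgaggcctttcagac
Klf4 promoter: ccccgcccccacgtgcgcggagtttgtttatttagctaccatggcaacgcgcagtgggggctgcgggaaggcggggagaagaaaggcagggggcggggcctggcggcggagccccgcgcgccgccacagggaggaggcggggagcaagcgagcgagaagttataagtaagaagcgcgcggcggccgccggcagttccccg

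The HSF2 list was called for endogenous HSF2, and the tagged proteins were only measured over it. Over the same 6 intervals the tagged full-length protein had the opposite sign from endogenous HSF2 at 4 with either antibody, though not the same 4. With the median of all sites subtracted from each signal, the sign was opposite at 0 of 6 with anti-HSF2 and at 2 of 6 with anti-HA. Halo-HSF2 read with anti-HSF2 was higher in M at 5 of 6 sites (79.7% of all) with a median log2 M/A of 0.30 against 0.64 over all, and read with anti-HA it was higher at 5 of 6 (86.3% of all) with 0.31 against 0.57. The DNA-binding domain alone was higher in M at 1 of 6 (58.6% of all), with a median of −0.40 against 0.10, and at least 2-fold lower at 1 (3.37% of all). All tagged signals here were low, with at most 3.41 in either phase. After the median of all sites was subtracted, Halo-HSF2 was higher in M at 1 of 6 with either antibody, with medians of −0.34 for anti-HSF2 and −0.26 for anti-HA.

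The start of *Tbx3*, the strongest of the 6 for endogenous HSF2 in A, ranked between 1529 and 1918 of 2135 in A for the constructs, within the list called for endogenous HSF2. There Halo-HSF2 had 1.08 in A and 1.11 in M with anti-HSF2, and 0.57 and 0.93 with anti-HA, and Halo-H2DBD had 0.87 and 0.76. Inside *Tbx3* anti-HSF2 gave 1.08 in A and 0.61 in M, the only lower value in M for that antibody, and Halo-H2DBD had 0.52 and 0.99, its only higher value in M. At the start of *Klf4* full-length Halo-HSF2 was higher in M with either antibody, at 1.13 and 1.79 with anti-HSF2 and 1.23 and 1.68 with anti-HA, whereas Halo-H2DBD had 1.82 in A and 0.71 in M (log2 ratio −1.35). At *Pou5f1* Halo-HSF2 had 1.43 and 1.94 with anti-HSF2 and 2.00 and 1.84 with anti-HA, so the antibodies gave opposite signs there, and Halo-H2DBD had 1.94 and 1.23. Over the start of *Klf2* the log2 M/A was 0.35 with anti-HSF2, 0.19 with anti-HA and −0.37 for Halo-H2DBD, and over its downstream site it was 0.26, 0.36 and −0.44.

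**Figure D4:**
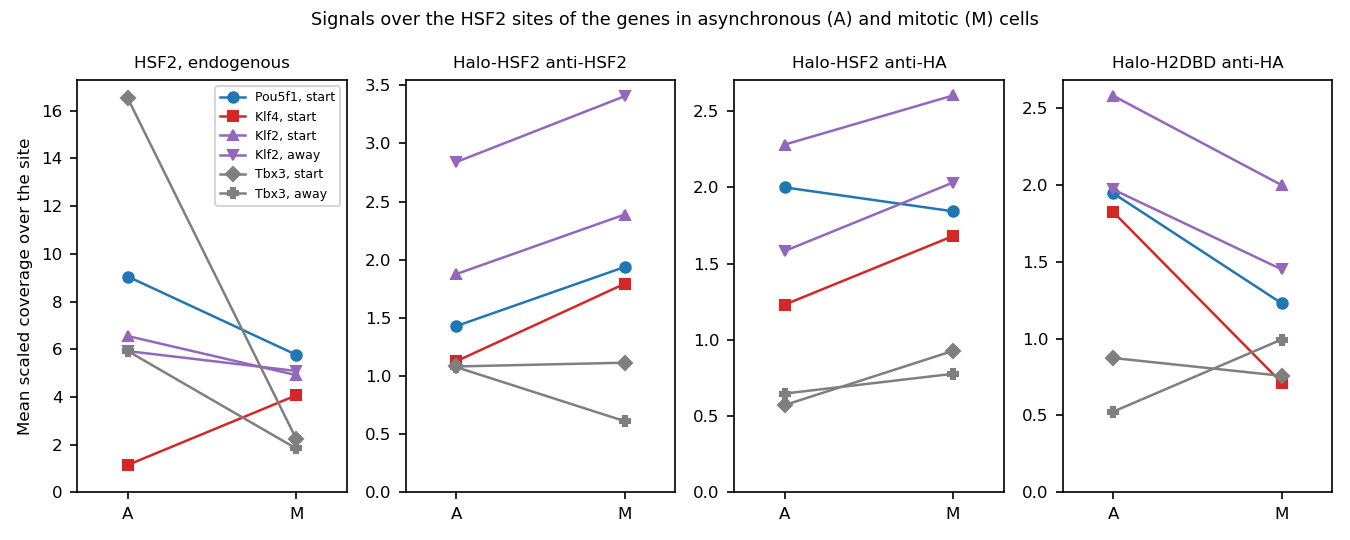
Signal (mean scaled coverage, linear axes from 0, a scale of its own per panel) over the 6 HSF2 sites of *Pou5f1*, *Klf4*, *Klf2* and *Tbx3* in asynchronous (A) and mitotic (M) cells, for endogenous HSF2, Halo-HSF2 with either antibody and Halo-H2DBD; "start" marks a site over the transcript start and "away" one that is not. Lines join the values of a site; 5 of 6 go down for endogenous HSF2, 5 of 6 go up for each Halo-HSF2 measurement (1 of 6 once the median of all sites is subtracted) and 5 of 6 go down for Halo-H2DBD.

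SOX2 sites and heat shock factor sites overlapped in larger shares at these genes than over all sites, a comparison given without a test. Of the 31 SOX2 sites 7 overlapped an HSF1 site (22.6%, against 3.97% of all SOX2 sites) and 4 an HSF2 site (12.9% against 2.86%). Seen from the other lists, 7 of 9 HSF1 sites (77.8% against 32.7%) and 4 of 6 HSF2 sites (66.7% against 19.1%) overlapped a SOX2 site. An HSF1 site was met by 5 of the 6 HSF2 intervals (83.3% against 40.7%), and an HSF2 site by 5 of the 9 HSF1 intervals (55.6% against 51.2%). The heat shock factor intervals are wide, with medians of 2611 bp for the 9 HSF1 sites (1938.5 bp over the list) and 4342.5 bp for the 6 HSF2 sites (2395 bp over the list), and the SOX2 sites of these genes are stronger than the middle of their list. The part that this plays in the overlap was not tested. The 7 SOX2 sites that overlapped a heat shock factor site, at *Pou5f1*, *Nanog*, *Klf2*, *Esrrb* and *Tbx3*, had a median signal of 93.8 in A against 15.0 for the other 24, and over the whole list the medians were 37.5 and 8.26.

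Where a SOX2 site lay within or across an HSF1 site, the HSF1 log2 M/A was below that of SOX2 in 6 of 7 pairs, and in 4 of 4 pairs the HSF2 value was below that of SOX2. The largest gap for HSF1 was at the upstream site of *Klf2*, with 0.61 for SOX2 and −1.05 for HSF1. The pair in which HSF1 was the higher lay in *Esrrb*, at −0.22 for SOX2 and 0.18 for HSF1. Over the whole lists the median was 0.34 for SOX2, −0.62 for HSF1 and 0.49 for HSF2, so that the HSF1 pairs follow the order of the lists and the HSF2 pairs do not. These are differences between antibodies and between intervals of unequal width.

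For the 3 genes with sites in all lists, the genes most like them were sought among 818 protein-coding genes with sites in all lists, by the Euclidean distance over 6 percentiles (A and M of each factor at the strongest site in A). For *Pou5f1* these were *Cchcr1* and *Tcf19*, at a distance of 0 because they are neighbours that share its sites, and *Hist1h4d*, at 15.6 percentile points. For *Klf2* they were the neighbour *Gm10282*, which shares its sites, then *Phc1* at 16.4 and *Taf15* at 20.3. For *Tbx3* the closest was *Otx1*, at 24.9, whose HSF2 percentile was 96.5 in A and 21.7 in M. Next came *Gm28048* at 37.7 and *Gm49361* at 39.4.

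A list of 26 other genes of the pluripotency network, among them *Nr5a2*, *Lefty1* and *Tet1*, was taken by the same rule. SOX2 sites lay at 24 of them. Of their 68 SOX2 sites 65 had signal in both phases, and the others, at *Gbx2*, *Mycn* and *Fgf4*, were at 0 in A and above 0 in M. The signal was higher in M at 22 of the 65 sites (63.4% of all SOX2 sites), with a median log2 M/A of −0.24 against 0.34 over all. It was at least 2-fold higher at 3 (26.8% of all) and at least 2-fold lower at 8 (10.0% of all). HSF1 sites lay at 6 of the genes and HSF2 sites at 6. As above, the share of all protein-coding genes with a site was not computed for any list. The HSF1 signal was higher in M at 1 of 6 sites (8.11% of all), with a median of −0.14 against −0.62 over all. None was past 2-fold (17.7% of all were lower and 0.521% higher by that much). The HSF2 signal was higher at 3 of 7 (72.3% of all), with a median of −0.46 against 0.49 over all. It was at least 2-fold higher at 1 (30.1% of all) and at least 2-fold lower at 2 (7.26% of all). Both of the latter, singled out after their values were seen, are at *Otx2*, a gene of the transition to the primed state, with 15.0 in A and 0.60 in M (log2 ratio −4.65) and with 14.3 and 2.11 (log2 ratio −2.76). None of these sites is shared with the 10 genes.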

How the data were processed

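CUT&Tag libraries of JM8 cells, 2 per condition, were aligned to mm10 by the authors with Bowtie2. With deepTools they made coverage scaled by a constant over the *Drosophila* read number, and the deposited signal is the mean over the replicates and over each site. The lists of heat shock factor sites join SEACR peaks of A and M, for which IgG libraries were the control, and the SOX2 list was taken by the authors from an earlier study. The values used here hold no single libraries, read counts or depth.

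The genome of RefSeq (GRCm38.p6) was compared with the GENCODE M21 basic annotation, and all 20 transcripts of the 10 genes were identical in both. Of 2141 HSF2 intervals, 6 were repeats and were taken once. Sites were assigned to a gene by its body or a distance of up to 20 kb from any of its transcript starts. For each site log2 M/A was computed with no pseudocount where both values were above 0, and ranks were taken within the list. An overlap was at least 1 bp. With no replicate values, no test was run and large differences were marked at a log2 of 1. Every site was named for genes with up to 4 in a list, and otherwise the strongest in A, the highest and lowest log2 M/A, and the range of the rest. Members, gene lists and rules were chosen with earlier results of these data known. Site assignment and ratios were tested on simulated data. Python 3.11.15, pandas 2.3.3, numpy 2.4.6, pysam 0.24.0, samtools 1.23.1 and matplotlib 3.10.9 were used.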

Additional observations from a re-analysis of the deposited data

Results flagged for a closer look

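Over the start of *Klf4*, endogenous HSF2 and the tagged DNA-binding domain differed by more than 2-fold in opposite directions. The log2 M/A was 1.82 for HSF2 and −1.35 for Halo-H2DBD read with anti-HA over the same interval. The difference was not tested, since each value is a mean over replicates. With 1 added to both signals the Halo-H2DBD value was −0.72.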

How the results depend on the processing

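No paired analysis was possible because the columns of the tables used here are averaged over replicates, and for the same reason no replicate could be left out; single libraries were not analysed here. Of 86 recomputed medians and counts, 73 kept their sign and lay within the 95% order-statistic interval of the sites (for counts, within 1.5 times). With 6 sites this interval is their whole range. The interval takes sites as independent, though many share a gene and all rest on means over replicates, so it served as a yardstick and not as a test. Within it, the HSF2 median of −0.53 became −1.03 after centring on all sites, −1.24 on the weakest quartile and −1.16 as the ratio of summed signal, and the HSF1 median of −0.76 became −0.14 and −0.17 under the centrings. The SOX2 median of −0.05 turned to 0.067 within 5 kb of a start, 0.022 with a window of 50 kb, 0.14 as the ratio of summed signal and 0.073 as the median over genes. It was −0.38 after centring on all sites and −0.34 on the weakest quartile. The medians of Halo-HSF2 turned under these centrings, to −0.34 and −0.22 with anti-HSF2 and to −0.26 and −0.38 with anti-HA. The means carried by the list of sites, an alternative chosen after the data were seen, gave −3.17 for HSF1, with −3.43 at *Nanog* and −2.31 at *Esrrb*. The HSF1 sites with a heat shock element were 0 in the central 200 bp, and the SOX2 sites with a composite element were 2 with 1 mismatch. The cause of these changes was not tested. Of 267 recomputed values of single sites, 14 dropped below 2-fold and 11 passed it with their sign unchanged. The sign changed in 28, of which 13 under each centring and 2, those of *Nanog* and *Esrrb* just given, under the second set of means. These 2 also passed 2-fold.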
